A study of Homo sapiens with 48 samples.

Results

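The subject is 10 genes of the cohesin, condensin and SMC5/6 complexes: SMC1A, SMC3, RAD21 and STAG2 of cohesin, SMC2, SMC4, NCAPD2 and NCAPG of condensin, and the pair SMC5 and SMC6. They were chosen by gene symbol, and all 10 were present among the 11145 genes measured in ribosome-protected fragments (RPFs) and among the 11947 genes measured in total cytoplasmic RNA. The cells were SW480, an established human colorectal adenocarcinoma line with mutant APC, stably transduced with a doxycycline (DOX)-inducible shRNA. The shRNA was the non-targeting shCTRL, shEIF2B1 against the α subunit of the translation factor eIF2B, or shEIF2B4 against its δ subunit. Each line received DMSO (-DOX, uninduced) or 1 µg/ml DOX (+DOX, induced) for 5 days, with 4 replicates carried out in separate weeks, which gave 24 RPF and 24 total RNA libraries. Every group therefore carries an integrated shRNA cassette, and shCTRL +DOX shares the drug with the induced knockdowns. The reads of replicate 3 were joined from 2 sequencing runs of the same libraries. Each knockdown rests on 1 shRNA line, so that the targeted gene and the line cannot be told apart.

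Structural maintenance of chromosomes (SMC) proteins are long ATPases that pair at a hinge and whose heads are bridged by a kleisin subunit, forming a ring that holds or extrudes DNA. Cohesin holds sister chromatids together from replication to anaphase and folds interphase chromatin into loops, condensin compacts chromosomes for mitosis, and the SMC5/6 complex acts in DNA repair and replication stress. In a dividing tumour line the condensin genes belong to the set transcribed mainly in G2 and mitosis, whereas cohesin and SMC5/6 are needed throughout the cycle.

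A promoter of each of the 4 condensin members held the letters of the CHR element, the cell cycle genes homology region. Through this element G2/M genes are repressed outside division. These promoters are shown because the letters were found in all 4 genes. The letters searched were TTTGAA and TTCGAA on both strands, in the window from 250 bases before to 50 bases after each RefSeq start site on GRCh38.p14. The element is in capitals, and each stretch reads along the sense strand from 5′ to 3′.
NCAPG (chr4:17810917-17810976, + strand): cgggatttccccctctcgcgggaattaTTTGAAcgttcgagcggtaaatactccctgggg
SMC4 (chr3:160399548-160399607, + strand): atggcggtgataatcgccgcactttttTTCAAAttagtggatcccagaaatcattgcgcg
SMC2 (chr9:104094279-104094311, + strand): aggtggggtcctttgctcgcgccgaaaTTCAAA
NCAPD2 (chr12:6493930-6493989, + strand): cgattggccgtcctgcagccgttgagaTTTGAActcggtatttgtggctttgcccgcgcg
The element began 35 bases before the start in NCAPG, 75 in SMC4, 3 in SMC2 and 145 in NCAPD2. SMC2 and SMC4 have 2 listed promoters each, and only the printed ones held it. Of the 5 cohesin and SMC5/6 genes with a listed promoter, SMC3 alone held the letters. Over the 9027 genes with RPF values and a listed promoter, 15.2% held them. CCAAT, searched on both strands, occurred in promoters of STAG2 and NCAPD2, against 43.5% of genes, and the E2F letters GGCGGGAA or GGCGCGAA occurred only in that of SMC6, against 8.7%. A match is a description of the letters and not a measured binding site.

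The 6 SMC genes encode the same nucleotide-binding motif, the Walker A loop of the ATPase head, and its codons are shown to identify the family and to show which codon position is counted later. The third base of each codon is in capitals, and each stretch spans 10 codons.
SMC1A: atTggAccCaaTggCtcTggTaaGtcAaaT
SMC3: gtGggCagAaaTggAtcTggAaaAagTaaC
SMC2: acTggCttAaaTggTagTggGaaAtcCaaC
SMC4: atCggGccAaaTggCagTggCaaAtcCaaT
SMC5: gtTggAgcCaaTggAacAggGaaGtcGagC
SMC6: gtTggCaaCaaTggAagTggGaaGagTgcA
In this loop 3 to 5 of the 10 capitals were G or C, SMC1A included with 3. Over whole coding sequences the genes differed. GC3, the percentage of codons with G or C at the third base, was 64.8% in SMC1A and 58.2% in NCAPD2, but 30.1% in SMC4, 30.9% in SMC6, 33.6% in NCAPG, 33.8% in SMC2, 34.3% in STAG2, 35.1% in SMC5, 35.3% in SMC3 and 37.9% in RAD21, against a median of 59.7% over 10789 genes. The 30 codons in the middle of the coding sequence show the contrast between NCAPD2, with 20 capitals that are G or C, and SMC4, with 9.
NCAPD2, codons 686 to 715: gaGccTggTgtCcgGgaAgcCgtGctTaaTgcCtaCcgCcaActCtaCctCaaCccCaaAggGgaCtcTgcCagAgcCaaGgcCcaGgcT
SMC4, codons 630 to 659: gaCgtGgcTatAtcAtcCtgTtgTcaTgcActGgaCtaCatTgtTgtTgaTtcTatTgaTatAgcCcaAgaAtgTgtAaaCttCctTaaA
The coding sequences were also long, with a median of 3621 bases against 1311 over all genes. The SMC1A transcript used by the study was not in the annotation used here, so another SMC1A transcript stands in for its composition.

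The deposited values are regularized log2 values, scaled separately for RPFs and total RNA, and translational efficiency (TE) was taken, lysate by lysate, as the log2 RPF value less the log2 total RNA value. The files give no read counts, so the depth behind a value is unknown. Two-sided limma tests with the week as a block were used throughout, and a gene counted as called when its p, adjusted by Benjamini-Hochberg over every gene of the table, was under 0.1. EIF2B1 was 0.97 lower on the log2 scale in RPFs of induced shEIF2B1 than of induced shCTRL (adjusted p = 4.5e-08), and was already 0.45 lower between the uninduced lines (adjusted p = 0.000194), which left an RPF response of -0.53 (adjusted p = 0.0109). EIF2B4 was 0.90 lower in RPFs of induced shEIF2B4 (adjusted p = 1.6e-05) and 0.42 lower before induction (adjusted p = 0.0824), and its RPF response, -0.48, was not called (adjusted p = 0.236). In total RNA the responses of both targeted genes were called lower, EIF2B1 at -0.67 after shEIF2B1 and EIF2B4 at -0.49 after shEIF2B4. Of 10 colorectal epithelial markers 6 were in both tables, KRT8 and KRT18 among them. KRT20, CDH17, VIL1 and LGR5 were in neither. Of 8 markers of other cell types, VIM was in both tables and CD14 in RPFs only.

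Levels were compared between genes only per length, in shCTRL -DOX. Log2 RPF minus log2 of the coding length in kb was highest for RAD21, the cohesin kleisin, at 8.85 ± 0.318 (SD, n = 4), and for NCAPD2, a HEAT-repeat subunit of condensin I, at 8.72 ± 0.174. RAD21 and NCAPD2 did not differ in the same direction in all 4 libraries. A step of 1.74 separated NCAPD2 from SMC4 at 6.98 ± 0.604, which was followed by STAG2 at 6.79, NCAPG at 6.52, SMC2 at 6.12 and SMC3 at 5.54. SMC5 and SMC6 were lowest, at 4.85 ± 0.310 and 4.52 ± 0.577. From NCAPG downward each gene exceeded the next in 4 of 4 libraries, whereas the order among SMC4, STAG2 and NCAPG was not fixed.

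The order in total RNA, per kb of transcript, was different. SMC4 was highest at 9.16 ± 0.135, ahead of STAG2 at 8.60 ± 0.147 in 4 of 4 libraries, and NCAPD2 took the fifth place at 7.31 ± 0.155. Per length, the RPF value minus the total RNA value was 1.41 ± 0.180 for NCAPD2 and -2.18 ± 0.501 for SMC4, both of condensin. RAD21 stood at 0.33 ± 0.345, and the other members lay between -1.03 for NCAPG and -2.44 for SMC6. The 2 tables were scaled separately, so only the order of these differences is meaningful. SMC1A was left out of the levels because the length of its transcript was not known here.

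All 10 members fell in RPFs after shEIF2B1, relative to the change of shCTRL on DOX, where 27.3% of all genes were called in either direction and 15.3% lower. The median of the 10 was -0.69, against -0.01 over all genes, and each was lower in 4 of 4 weeks. NCAPG, SMC4 and SMC2 of condensin had the lowest responses. NCAPG, the other HEAT-repeat subunit of condensin I, had RPF values of 8.48, 9.38, 8.39 and 9.32 in shEIF2B1 -DOX and of 7.20, 7.74, 7.51 and 8.07 in shEIF2B1 +DOX. In shCTRL it had 7.43, 8.54, 7.76 and 8.79 without DOX and 7.87, 7.99, 7.81 and 8.83 with it. The induced and uninduced shEIF2B1 libraries did not overlap, as was so for 3 of 10 members and 16% of all genes, and in each week the uninduced shEIF2B1 value was above both shCTRL values of that week. The response of NCAPG was -1.26 (SE 0.187, adjusted p = 0.000235).

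SMC4 and SMC2 form the ATPase pair of condensin. SMC4 had RPF values of 8.97, 10.44, 9.22 and 10.43 in shEIF2B1 -DOX and of 8.27, 8.66, 8.49 and 9.15 in shEIF2B1 +DOX, against 8.12, 9.12, 8.93 and 9.56 in shCTRL -DOX and 8.66, 8.74, 8.63 and 9.70 in shCTRL +DOX. Its response was -1.13 (SE 0.228, adjusted p = 0.00333). SMC2 responded by -1.02 (SE 0.233, adjusted p = 0.00654). NCAPD2 had the smallest response of the 4, at -0.52 (SE 0.160, adjusted p = 0.0295). Its 4 induced shEIF2B1 values, 10.11 to 10.53, lay below all 4 uninduced ones, 10.82 to 10.98.

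The cohesin responses ran from -0.52 to -0.77. The ATPases SMC3 and SMC1A responded by -0.77 (SE 0.216, adjusted p = 0.0194) and -0.63 (SE 0.176, adjusted p = 0.0195). RAD21 responded by -0.68 with the smallest error of the 10 (SE 0.124, adjusted p = 0.00157), and STAG2, which docks on RAD21, by -0.52 (SE 0.200, adjusted p = 0.0745). For SMC6 and SMC5 the responses were -0.71 (SE 0.166, adjusted p = 0.0074) and -0.61 (SE 0.198, adjusted p = 0.0384). These calls rest on pairing within weeks: with no block for the week 0 of 10 were called, with adjusted p from 0.603 for NCAPG to 0.665 for STAG2. Without replicate 4 the count was 5, and without replicate 1 it was 8. A response also holds the change of shCTRL on DOX, which was above 0 for 7 members and below 0 for 3. The RPF mean of STAG2 went from 9.37 to 9.09 in shEIF2B1 and from 8.68 to 8.92 in shCTRL. That of SMC6 went from 7.01 to 6.65 in shEIF2B1 and from 6.23 to 6.58 in shCTRL. With DOX shEIF2B1 lay above shCTRL for 3 members, STAG2, SMC5 and SMC6, and below it for 7.

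**Figure D1:**
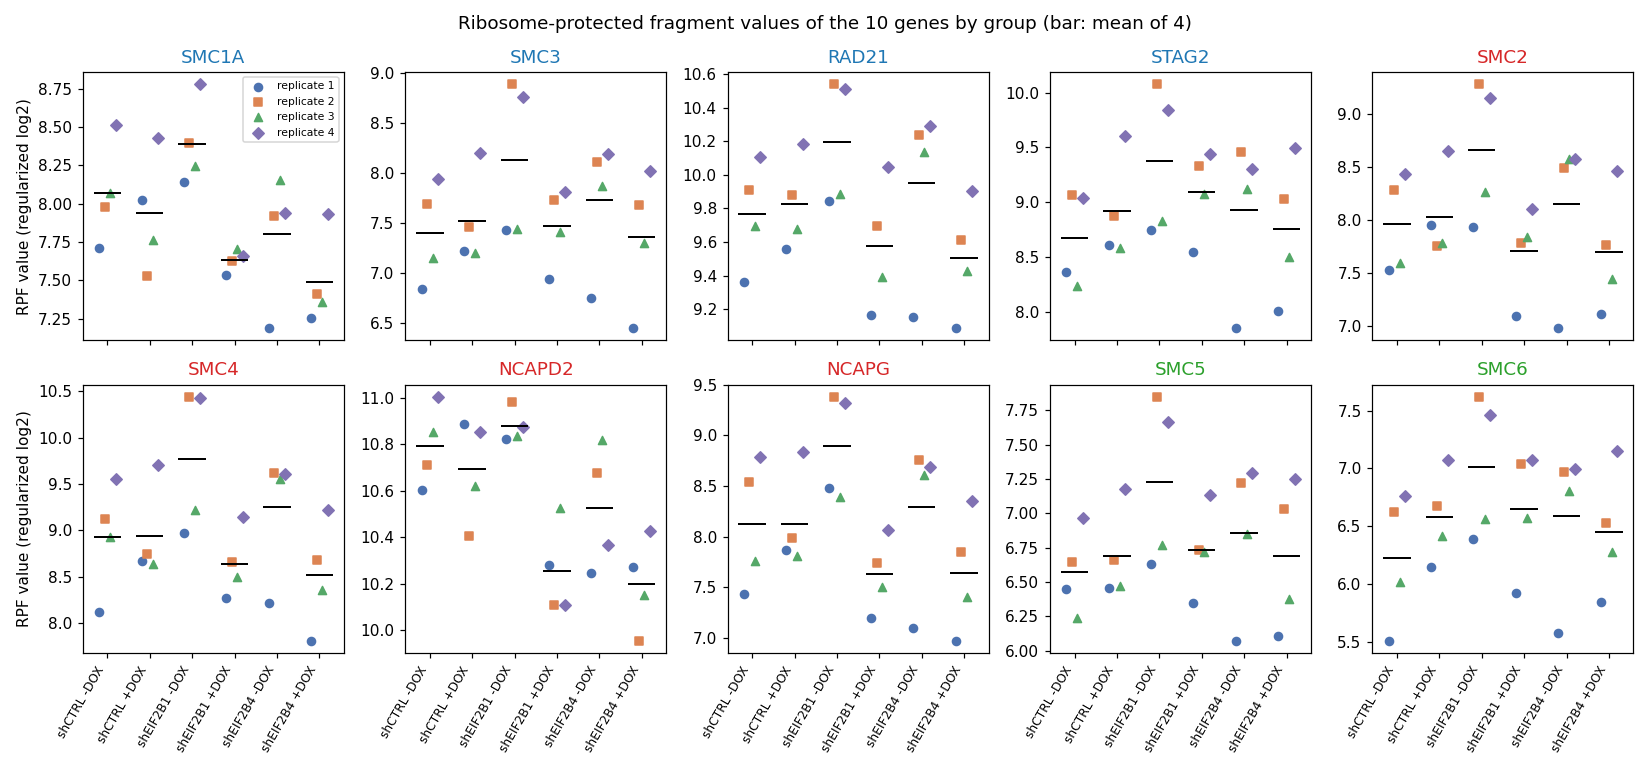
Regularized log2 RPF values of the 10 genes (vertical axes, 1 panel per gene, axes not shared) in the 6 groups, with 1 symbol per replicate (week) and a bar at the mean of 4. In NCAPG, SMC1A and NCAPD2 the induced shEIF2B1 values lie below all uninduced shEIF2B1 values, and in the shEIF2B4 -DOX group replicate 1 lies far below the other 3 for SMC2, SMC4 and NCAPG.

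In total RNA NCAPG and SMC4 were the members called lower after shEIF2B1, where 3.47% of genes were called and 1.13% lower. The response of NCAPG was -0.61 (SE 0.135, adjusted p = 0.0216) and that of SMC4 was -0.52 (SE 0.147, adjusted p = 0.0795). NCAPG total RNA values fell from 9.83, 10.08, 9.76 and 9.90 without DOX to 9.28, 8.94, 9.15 and 9.28 with it, without overlap, as was so for 6 of 10 members and 27.9% of all genes. SMC1A at -0.43 and NCAPD2 at -0.34 were below 0 in 4 of 4 weeks but were not called (adjusted p = 0.172 and 0.115). STAG2, at -0.06, was nearest to 0. Without replicate 1 or without replicate 4, 0 members were called in total RNA, and with no block for the week NCAPG alone was.

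In TE 4 members fell after shEIF2B1, where 7.1% of genes were called and 4.13% lower. They were SMC2 at -0.71 (SE 0.187, adjusted p = 0.0455), NCAPG at -0.65 (SE 0.160, adjusted p = 0.0406), SMC3 at -0.52 (SE 0.176, adjusted p = 0.0977) and RAD21 at -0.52 (SE 0.171, adjusted p = 0.0897). SMC1A and NCAPD2 had the TE responses closest to 0, -0.19 (95% confidence interval -0.57 to 0.18) and -0.18 (-0.51 to 0.15). The count of 4 became 0 without replicate 1, without replicate 3 or without replicate 4, and 6 without replicate 2, and it was 0 with no block for the week.

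After shEIF2B4 0 of 10 members were called by limma in RPFs, where 2.75% of genes were, 0 in total RNA (5.4%) and 0 in TE (0.0923%). All 10 RPF responses were below 0, from -0.18 for SMC1A to -0.74 for SMC4 (SE 0.237, adjusted p = 0.144), and 5 had an unadjusted p under 0.05. In total RNA 4 had an unadjusted p under 0.05. NCAPD2 at -0.34 (adjusted p = 0.126) and SMC1A at -0.39 (adjusted p = 0.182) were the nearest to a call. In TE SMC6, at -0.60 (adjusted p = 0.232), was the single member with an unadjusted p under 0.05. When each week's change on DOX was fitted with the week as a block, 7, 2 and 1 members were called lower in RPFs, total RNA and TE after shEIF2B4, where 18%, 10.1% and 6.63% of all genes were called. For shEIF2B1 the counts were 10, 4 and 7, and the shares of all genes 36.3%, 5.66% and 11.5%.

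The RPF and TE counts after shEIF2B4 changed with 1 library as well as with the form of the week block. In shEIF2B4 -DOX replicate 1 SMC4 had an RPF value of 8.21, against 9.55 to 9.62 in the other 3, NCAPG 7.10 against 8.61 to 8.76, and SMC2 6.98 against 8.49 to 8.58. Week 1 was also the lowest week for these genes averaged over the 6 groups. In shCTRL -DOX of that week SMC4 was at 8.12, NCAPG at 7.43 and SMC2 at 7.53. Without shEIF2B4 -DOX replicate 1, 7 of 10 members were called lower in RPFs after shEIF2B4: SMC4 at -0.88, NCAPG at -0.86, SMC2 at -0.80, RAD21 at -0.65, SMC6 at -0.63, STAG2 at -0.63 and SMC3 at -0.61, with 17.9% of all genes called. In TE 8 were then called lower, where 21.1% of genes were called, and in total RNA 0 (7.8%). This alternative was chosen after the values were seen.

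The responses to the 2 knockdowns were compared directly, over 24 libraries. No member was called by limma in any measure, and over whole tables a single gene, 1 of 11145 (0.00897%), was called in RPFs, 12 (0.1%) in total RNA and 0 in TE. The RPF response was lower after shEIF2B1 for all 10, by 0.10 for STAG2 to 0.62 for NCAPG, and NCAPG and SMC1A had an unadjusted p under 0.05, as had 2 members in total RNA and 1 in TE. For NCAPG the difference of -0.62 had a 95% confidence interval of -1.14 to -0.10 and an adjusted p of 0.746. Both responses use the same shCTRL libraries. In shCTRL itself DOX changed SMC6 alone in RPFs, by 0.35 (SE 0.115, adjusted p = 0.0991), where 9.85% of genes were called and 5.23% higher, and 0 members in total RNA (4.44%) and TE (0.388%), with 0 and 1 at an unadjusted p under 0.05. The call of SMC6 was lost whichever replicate was left out, and without replicate 1 SMC1A and NCAPD2 were called instead, at -0.28 and -0.23, where 31.6% of genes were called.

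**Figure D2:**
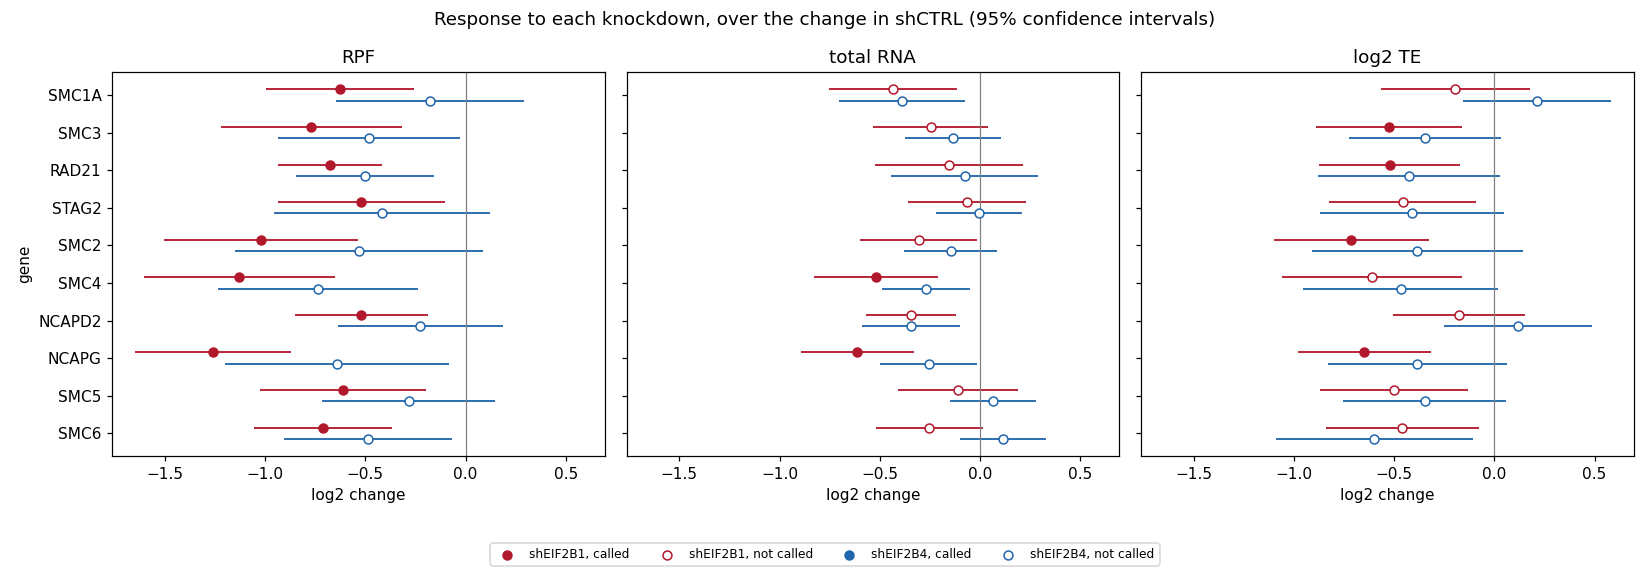
Log2 response of each gene to shEIF2B1 (red) and shEIF2B4 (blue), over the change of shCTRL on DOX, in RPFs, total RNA and TE, with 95% confidence intervals from limma, filled where called. RPF responses to shEIF2B1 are all below 0 and filled, while in total RNA NCAPG and SMC4 alone are filled.

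The shEIF2B1 line already differed from shCTRL before induction. Between uninduced shEIF2B1 and uninduced shCTRL 9 of 10 members were called higher in RPFs, where 54.1% of all genes were called and 29% higher. The differences ran from 0.32 for SMC1A (SE 0.081) to 0.83 for SMC4 (SE 0.109, adjusted p = 2.1e-05), with NCAPG at 0.77, SMC6 at 0.78 and SMC3 at 0.73. NCAPD2, at 0.09 (95% confidence interval -0.08 to 0.25), was not called. In total RNA 0 of 10 were called by limma, 0 with an unadjusted p under 0.05, where 1.4% of genes were called. In TE the same 9 were called higher, where 42.6% of genes were called and 23.1% higher, with SMC4 at 0.83 and SMC1A at 0.30. With no block for the week 0 were called in RPFs and TE.

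Between uninduced shEIF2B4 and uninduced shCTRL 0 members were called by limma in RPFs (13.9% of genes), total RNA (2.32%) or TE (0.554%), with 3, 4 and 4 at an unadjusted p under 0.05. Without shEIF2B4 -DOX replicate 1, 8 of 10 were called higher in RPFs, by 0.32 for RAD21 to 0.51 for STAG2, where 47.6% of genes were called. SMC1A and NCAPD2, at -0.18 and -0.24, were the members not called.

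Because the uninduced lines differed, the induced lines were also set against each other, a comparison added after the values were seen. NCAPG, NCAPD2 and SMC4 were lower in both RNA pools of both knockdowns. In RPFs of induced shEIF2B1 3 of 10 members were lower than in induced shCTRL, where 10.5% of genes were called and 4.81% lower: NCAPG by 0.50 on the log2 scale (SE 0.113, adjusted p = 0.00449), NCAPD2 by 0.44 (SE 0.112, adjusted p = 0.0128) and SMC4 by 0.30 (SE 0.107, adjusted p = 0.0948). In total RNA 4 were lower, where 7.64% of genes were called and 2.7% lower: SMC4 by 0.51 (SE 0.106, adjusted p = 0.0148), NCAPG by 0.49 (SE 0.095, adjusted p = 0.0101), SMC1A by 0.41 (adjusted p = 0.058) and NCAPD2 by 0.31 (adjusted p = 0.0933). Total RNA of NCAPG, NCAPD2, SMC1A and SMC6 did not overlap between the groups, and 9.54% of all genes did not. NCAPG stayed called in both measures whichever replicate was left out. The RPF calls of NCAPD2 and SMC4 were lost without replicate 1 and without replicate 4, that of SMC4 also without replicate 3, and the total RNA calls of SMC1A and NCAPD2 without replicates 1, 3 or 4. With no block for the week 0 members were called in RPFs and 2 in total RNA of induced shEIF2B1, and 0 in RPFs of induced shEIF2B4.

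Induced shEIF2B4 was set against the same induced shCTRL libraries. In RPFs 6 of 10 were lower, where 29.4% of genes were called and 25.3% lower: NCAPD2 at -0.49 (SE 0.087, adjusted p = 0.00163), NCAPG at -0.48 (SE 0.113, adjusted p = 0.00869), SMC1A at -0.45 (adjusted p = 0.0104), SMC4 at -0.42 (adjusted p = 0.0189), SMC2 at -0.34 (adjusted p = 0.0578) and RAD21 at -0.32 (adjusted p = 0.0201). The median of all genes was itself at -0.13 here, and with each library centred on its median SMC1A, NCAPD2 and NCAPG remained called. In total RNA 6 were lower, where 30% of genes were called and 19.1% lower: SMC4 at -0.45 (SE 0.064, adjusted p = 0.000342), SMC1A at -0.44, NCAPD2 at -0.41, NCAPG at -0.40, SMC3 at -0.29 and SMC2 at -0.26. For SMC4 the total RNA values were 11.00, 10.92, 11.06 and 11.12 in induced shEIF2B4 and 11.52, 11.32, 11.40 and 11.65 in induced shCTRL, without overlap, as was so for 4 of 10 members and 19.9% of all genes. Without replicate 4 the RPF count was 3.

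SMC5 and SMC6 were called in no measure between the induced lines. SMC5 was at 0.04 in RPFs and -0.00 in total RNA of shEIF2B1, and at 0.00 in both of shEIF2B4, with 95% confidence intervals within 0.28 of 0. For SMC6 the differences for shEIF2B1 were 0.07 in RPFs and -0.19 in total RNA, and for shEIF2B4 they were -0.13 and -0.12. The 4 total RNA values of SMC6 in induced shEIF2B1, 8.43 to 8.79, lay below the 4 of induced shCTRL, 8.81 to 8.98, without a call (adjusted p = 0.332). STAG2 was at 0.18 in RPFs and 0.04 in total RNA of shEIF2B1. In TE 0 of 10 members were called by limma between the induced lines for either knockdown, where 0.388% of genes were called for shEIF2B1 and 3.03% for shEIF2B4, and 0 had an unadjusted p under 0.05. The TE differences of the 10 ran from -0.12 for NCAPD2 to 0.26 for SMC6 after shEIF2B1, and from -0.08 for NCAPD2 to 0.13 for SMC3 after shEIF2B4.

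Base composition moved with the RPF responses, and its part in them was not tested. Over 10789 genes split into 10 bins of equal size by GC3, the median RPF response to shEIF2B1 went from -0.39 in the lowest bin to 0.26 in the highest, and the share called lower from 48.8% to 0.2%. SMC3, STAG2, SMC2, SMC4, NCAPG, SMC5 and SMC6 were in the lowest bin, and RAD21 was in the second, with 39.9% called lower. NCAPD2 was in the fifth bin, with 10.9% called lower, and SMC1A in the sixth, with 5.7%. Their responses, -0.52 and -0.63, stood against bin medians of -0.03 and 0.05. Between the uninduced shEIF2B1 and shCTRL lines the bin medians ran the other way, from 0.42 in the lowest to -0.28 in the highest. Between the induced lines they were nearly level, from 0.04 to -0.03 for shEIF2B1 and from -0.09 to -0.15 for shEIF2B4. Members of the lowest bin ran there from -0.50 for NCAPG to 0.18 for STAG2 for shEIF2B1. For shEIF2B4 they ran from -0.48 for NCAPG to 0.00 for SMC5.

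The weeks differed along the same axis. Averaged over the 6 groups, RPF values of SMC3 were 6.94, 7.93, 7.40 and 8.16 in weeks 1 to 4, those of SMC4 8.34, 9.21, 8.87 and 9.61, and those of NCAPD2 10.52, 10.47, 10.63 and 10.61. Weeks 2 and 4 lay above weeks 1 and 3 for 9 of 10 members, with a median of 0.76, against -0.02 over all genes, and NCAPD2, at -0.04, was the exception. Over the GC3 bins this week difference ran from 0.52 to -0.40. In total RNA the 10 members differed between those weeks by -0.06 to 0.08. The range of the 4 week means in RPFs, 0.16 for NCAPD2 to 1.27 for SMC4, exceeded the size of the response to shEIF2B1 for 7 of 10 members. The block removed the week shift shared by the groups, but not week differences that varied between groups. SMC3 had RPF values of 7.43, 8.89, 7.44 and 8.77 in weeks 1 to 4 of shEIF2B1 -DOX. In shEIF2B1 +DOX they were 6.94, 7.74, 7.41 and 7.81.

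The partners of each ATPase pair are needed in equal number, and the balance between them was followed week by week. On the log2 scale SMC1A minus SMC3 changed in RPFs by 0.14 ± 0.338 (SD, n = 4 weeks) after shEIF2B1, over the change in shCTRL. After shEIF2B4 it changed by 0.30 ± 0.200 over shCTRL, above 0 in 4 of 4 weeks. In shCTRL itself the mean of this difference went from 0.66 without DOX to 0.42 with it. The means went from 0.26 to 0.15 in shEIF2B1 and from 0.07 to 0.13 in shEIF2B4. In total RNA the same balance changed by -0.19 ± 0.417 and -0.25 ± 0.112, the second below 0 in 4 of 4 weeks. SMC2 minus SMC4 changed in RPFs by 0.11 ± 0.263 and 0.20 ± 0.458, and SMC5 minus SMC6 by 0.10 ± 0.541 and 0.20 ± 0.215. On DOX the RPF mean of SMC5 minus SMC6 fell from 0.35 to 0.11 in shCTRL. It also fell from 0.22 to 0.08 in shEIF2B1 and from 0.27 to 0.24 in shEIF2B4. In an exact two-sided sign-flip permutation test over 4 weeks the smallest p the design allows is 0.125, so no pair could pass 0.05. Of 18 comparisons 6 reached it, with a Benjamini-Hochberg adjusted p of 0.375. They were SMC1A minus SMC3 after shEIF2B4 in RPFs, total RNA and TE (0.56 ± 0.209) and after shEIF2B1 in TE (0.33 ± 0.245), and, in total RNA after shEIF2B1, SMC2 minus SMC4 (0.21 ± 0.145) and SMC5 minus SMC6 (0.14 ± 0.0206).

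Of other subunits of these complexes, their regulators and partners, and a non-canonical SMC protein, 27 genes were measured in both tables. After shEIF2B1 12 were lower and 1 higher in RPFs, with a median of -0.38, and 3 were lower in total RNA. Over all genes 15.3% were called lower and 12% higher in RPFs, with a median of -0.01, and 1.13% lower in total RNA. After shEIF2B4 1 was lower in RPFs and 2 in total RNA, where 0.87% and 1.62% of all genes were called lower. SGO1, shugoshin, which protects centromeric cohesin, fell in RPFs by 0.71 after both (adjusted p = 0.0156 and 0.0531). Its RPF means were 5.45 and 5.39 in uninduced shEIF2B1 and shEIF2B4, against 4.86 in uninduced shCTRL. With DOX they were 4.87 and 4.82, against 5.00 in shCTRL. Also lower in RPFs after shEIF2B1 were STAG1, the paralogue of STAG2, at -0.62 (adjusted p = 0.0413), and WAPL, which releases cohesin, at -0.55 (adjusted p = 0.0267). PTTG1, securin, was at -0.55 (adjusted p = 0.034), ESCO2, which acetylates SMC3, at -0.54 (adjusted p = 0.0531) and RAD21L1, a germline paralogue of RAD21, at -0.54 (adjusted p = 0.0214). The RPF values of RAD21L1 were low, against library medians of 6.84 to 7.12. Its means rose from 3.36 to 3.65 on DOX in shCTRL and fell from 3.69 to 3.44 in shEIF2B1. The single gene that rose, named after its value was seen, was the cohesin loader subunit MAU2, at 0.47 (adjusted p = 0.0162). Before induction 17 of the 27 genes were called higher and 2 lower in RPFs of shEIF2B1 than of shCTRL. Over all genes 29% were called higher and 25.1% lower. Between the induced lines 3 of the 27 were called lower in RPFs for shEIF2B1 and 9 for shEIF2B4. The shares of all genes called lower were 4.81% and 25.3%.

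Between the induced lines 25.3% and 19.1% of all genes were called lower in RPFs and total RNA for shEIF2B4, and 4.81% and 2.7% for shEIF2B1. Among the 4 other condensin subunits measured, the comparison of induced lines gave 4 of 4 lower in RPFs and in total RNA for shEIF2B4, and 1 and 2 of 4 for shEIF2B1. NCAPH, the kleisin of condensin I, was called in all of these, named after its values were seen, at -0.33 in RPFs and -0.36 in total RNA for shEIF2B1 and -0.40 and -0.38 for shEIF2B4. Of 6 other SMC5/6 subunits and adaptors 0 were called in RPFs for either knockdown, and 0 had an unadjusted p under 0.05. In total RNA 0 were called for shEIF2B1, and 1 higher and 1 lower for shEIF2B4, where 10.9% of all genes were called higher.

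Of 12 proliferation genes 10 were lower in RPFs and 10 in total RNA of induced shEIF2B1 against induced shCTRL, with medians of -0.45 and -0.46, and 12 and 12 for shEIF2B4, with medians of -0.43 and -0.35. Over all genes 4.81% and 2.7% were called lower for shEIF2B1, with medians of -0.005 and -0.009. For shEIF2B4 25.3% and 19.1% of all genes were called lower, with medians of -0.13 and -0.04. MKI67, a marker of cycling cells, was lower by 0.66 in total RNA for shEIF2B1 (adjusted p = 0.0207) and by 0.61 for shEIF2B4 (adjusted p = 5.4e-05). TOP2A, the topoisomerase that works beside condensin on mitotic chromosomes, was lower by 0.48 (adjusted p = 0.0184) and 0.44 (adjusted p = 0.000477). NCAPG, SMC4 and NCAPD2 moved with these genes, whose part in their change was not tested. In these bulk lysates fewer dividing cells and less RNA per cell cannot be told apart.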

How the data were processed

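The deposited values for 24 RPF and 24 total RNA libraries of SW480 lines were used, and groups were taken from the labels. The authors deposited regularized log2 values from DESeq2, made separately for RPF reads counted on coding sequences and for total RNA quantified with RSEM (Bowtie2 alignments, cutadapt 1.18 and SAMtools 1.9, per the labels). No counts are given, so depth and counting precision are unknown and no test on counts was possible. limma 3.58.1 under R 4.3.3 was used for every model (lmFit, eBayes with trend), with replicate, shRNA, DOX and their product. The response is the product term over 16 libraries. The labels place replicates in separate weeks: after group means were removed, 52 of 60 same-week RPF pairs, 37 of 60 in total RNA and 55 of 60 in TE correlated over 0.1. Alternatives changed the block, the trend, a filter on low values, the centring, the libraries in the fit and the threshold, and left out each replicate. The comparison of induced lines and the fits without 1 library were added after the values were seen. In the main fits p-values measure the spread left among weekly cultures of 1 line per shRNA after week and group shifts were fitted.

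The members and gene lists were chosen with earlier results of these data known. Named genes were the 10 members, the targeted genes, MKI67 and TOP2A. Of the other subunits, regulators and partners, the 6 with the largest called RPF response were named. Coding composition came from GENCODE v29 on GRCh38, which held a complete coding sequence for 96.8% of RPF genes, 30.3% in the same transcript version, and promoters from RefSeq on GRCh38.p14, listed for 9 of 10 members. Scripts were tested on simulated data.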

Additional observations from a re-analysis of the deposited data

Results flagged for a closer look

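In 13 of 180 groups of 4 values (10 genes, 6 groups, 3 measures) the highest or lowest library lay far from the other 3; the gap over the group's range passed Dixon's 95% critical value. Chance gives about 1 such group in 20. Replicate 1 of shEIF2B4 -DOX, the lowest library, accounted for 9 of them. In RPFs it stood at 9.15 for RAD21 (nearest other 10.13), 6.98 for SMC2 (8.49), 8.21 for SMC4 (9.55), 7.10 for NCAPG (8.61) and 5.58 for SMC6 (6.81). In TE it stood at -2.67 for SMC2 (-1.30), -3.21 for SMC4 (-1.94), -2.44 for NCAPG (-1.06) and -3.19 for SMC6 (-1.76). In total RNA that library was not so placed for any member. Averaged over the 6 groups, week 1 was also the lowest week for the genes named here, in RPFs and in TE.

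The other groups were replicate 2 of shEIF2B1 +DOX in total RNA, lowest for SMC5 at 8.98 (nearest other 9.49) and for SMC6 at 8.43 (8.77), replicate 4 of shCTRL +DOX in RPFs, highest for SMC4 at 9.70 (8.74), and replicate 4 of shCTRL -DOX in TE, highest for SMC1A at -0.89 (-1.5).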

How the results depend on the processing

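The number of members called, of 10, changed with the week block, and the share of all genes called is given in parentheses throughout. With no replicate block it was 0 for the RPF (0.449%) and TE (0%) responses to shEIF2B1, 1 for the total RNA response (1.6%), 0 for RPFs and TE of uninduced shEIF2B1 (0% in both), 0 for the RPF change of shCTRL on DOX (0%), 0 for RPFs of induced shEIF2B1 (0.7%) and of induced shEIF2B4 (1.61%), and 2 for total RNA of induced shEIF2B1 (3.7%). With the block on each week's change it was 7 (18%), 2 (10.1%) and 1 (6.63%) for the RPF, total RNA and TE responses to shEIF2B4, and 4 (5.66%) and 7 (11.5%) for total RNA and TE after shEIF2B1. With all 24 libraries in 1 fit it was 1 for RPFs after shEIF2B4 (4.4%) and 0 for TE after shEIF2B1 (0.406%). With no shCTRL correction it was 5 (23.8%), 5 (34.4%) and 1 (6.21%) for RPFs, total RNA and TE after shEIF2B4, and 5 (34.4%) for total RNA after shEIF2B1. With each library centred on its median it was 2 for TE after shEIF2B1 (7.01%), 1 for total RNA after shEIF2B4 (5.38%), 0 for RPFs of shCTRL on DOX (9.82%) and 3 for RPFs of induced shEIF2B4 (15.6%). At a threshold of 0.05 it was 1 for total RNA (1.75%) and 2 for TE (2.22%) after shEIF2B1.

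Leaving out each replicate in turn gave 5 to 10 members for the RPF response to shEIF2B1 (13.7% to 24.4%), 0 to 4 for total RNA (0.929% to 5.4%) and 0 to 6 for TE (0% to 12.6%). For shEIF2B4 it gave 0 to 6 (0.386% to 14.5%), 0 to 1 (1.82% to 4.15%) and 0 to 2 (0% to 13.1%), and without the library shEIF2B4 -DOX replicate 1 alone 7 (17.9%), 0 (7.8%) and 8 (21.1%). Uninduced shEIF2B1 gave 9 in RPFs (42.6% to 48.6%) and 8 to 9 in TE (27.4% to 38.3%), and uninduced shEIF2B4 0 to 8 in RPFs (0% to 47.6%), 0 to 2 in total RNA (0.0419% to 5.24%) and 0 to 8 in TE (0.00923% to 45.4%). Without that library the counts for uninduced shEIF2B4 were 8 in RPFs (47.6%) and 8 in TE (45.4%). The change of shCTRL on DOX gave 0 to 2 in RPFs (0.0269% to 31.6%) and in total RNA (0.0251% to 20.5%). Induced shEIF2B1 ranged over 1 to 5 for RPFs (5.92% to 10.1%) and 2 to 5 for total RNA (2.68% to 16%), and induced shEIF2B4 over 3 to 6 (13.9% to 38%) and 6 to 7 (20.1% to 26.1%). The difference between responses gave 0 in all of these. No called member changed sign under any alternative. The order of RPF levels kept 7 of 9 ranks when taken over all 24 libraries. The cause of these changes was not tested. Depth is unknown, so it cannot be said which values it limits.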
